A study of Mus musculus with 18 samples.

Results

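Pou5f1, Sox2, Nanog, Sall4, Utf1, Dppa4, L1td1, Otx2 and Fgf5 are genes of the core pluripotency network and of the primed epiblast state. They were followed here by mRNA-seq in P19 cells, a mouse embryonic carcinoma line taken from a teratocarcinoma. The 9 genes were picked by symbol, with earlier results of these data known, out of 55450 genes in the deposited table. Each symbol matched a single entry. All 9 passed the expression filter of every comparison below.

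The samples came from 3 P19 lines with 6 samples each, and none received a treatment. WT cells carried the genotype Dicer (+/+). HetKO cells, Dicer (+/-), carried a frameshift truncation of 1 Dicer1 allele that was cut by CRISPR with a pair of guides. HM cells, Dicer (HM/-), were derived from HetKO by changing the remaining full-length allele to a missense hotspot of the RNase IIIb domain, so HM shares the truncated allele with HetKO. The P19 line was not authenticated by the study, and each edited genotype was a single line, so the genotype and the cloning step cannot be told apart. HetKO samples were titled in another form and numbered apart from the WT and HM samples, and the labels name no batch. Any difference in preparation between HetKO and the other lines therefore cannot be told apart from the line. The labels do not say whether the 6 samples of a line were separate cultures, so p-values here measure the spread between these samples, which may be technical. In bulk RNA, fewer cells that express a gene and less of its RNA per cell cannot be told apart.

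Pou5f1 (also called Oct4) and Sox2 are transcription factors that bind DNA together and hold cells in the pluripotent state, with Nanog and the zinc finger protein Sall4 acting in the same network. Utf1 and Dppa4 are chromatin-associated proteins of pluripotent cells, and L1td1 is an RNA-binding protein derived from a LINE-1 element. Pluripotent cells pass from a naive state, as in the early blastocyst, to a primed state, as in the epiblast after implantation, where the homeodomain factor Otx2 and the growth factor Fgf5 are characteristic. Embryonic carcinoma cells resemble the epiblast and keep most of this network. Dicer cuts hairpin precursors into miRNAs, and its RNase IIIb domain makes the cut that frees the 5p arm.

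The 3′ UTR of each member was searched for the 7 bases that pair with the seed (bases 2 to 8) of 10 miRNAs. They are a choice among the miRNAs measured by the study, and its other miRNAs were not searched. Dicer produces these miRNAs, which is why they are shown. The miRNAs that matched a member came from a pair of seeds. Mature sequences are from RefSeq (GRCm38.p6), and capitals mark the seed.
miR-15b-5p: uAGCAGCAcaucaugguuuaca
miR-16-5p: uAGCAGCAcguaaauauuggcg
miR-17-3p: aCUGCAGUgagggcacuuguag
miR-20b-3p: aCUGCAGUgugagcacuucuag

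Sall4 was the only member whose longest annotated 3′ UTR held the match to the 5p seed, TGCTGCT, and it held 2 of them in 1697 bases. L1td1 was the only member with the match to the 3p seed, ACTGCAG, which occurred once in its 364 bases. The stretches below are given 5′ to 3′ on the strand of the gene, with the match in capitals. The first Sall4 stretch lies at chr2:168749829-168749857 and the second at chr2:168749276-168749304, both on the minus strand, and the L1td1 stretch lies at chr4:98738388-98738416 on the plus strand (GRCm38).
Sall4, first site: gagagttgctaTGCTGCTttccaaaaaaa
Sall4, second site: acaatttctccTGCTGCTtccttaaatat
L1td1 site: agttagaagagACTGCAGgctgactgact

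Such short matches are common. TGCTGCT occurred in 24.8% of the 12113 3′ UTRs searched and ACTGCAG in 16.7%. The other 5p matches searched were GTCTTCC for miR-7a-5p, GCACTTT for miR-17-5p and miR-20b-5p, and TACTTGA for miR-26a-5p, none of which occurred in a member. The other 3p matches were ATTTGTT for miR-7a-1-3p and ATGATTC for miR-15b-3p, also without a member. Any of the 5p matches searched was present in 45% of all UTRs and in 1 of the 9 members. Any of the 3p matches searched was present in 35.5% and again in 1 of the 9. The members' UTRs ran from 122 bases (Utf1) to 1697 bases (Sall4), against a median of 1187 over all UTRs. A match is a description of the letters and not a measured site.

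RefSeq promoters, taken as 250 bases before to 50 after the annotated start, were present for 7 of the 9 members, in 12 windows. The composite of a SOX half-site and an octamer half-site, ATTGT followed by any base and ATGCAAA, was found on either strand in 8 of 32851 promoters (0.0244%). Nanog was the only member with it. Its overlapping windows hold the same site, from 75 and from 151 bases before their starts, and count separately among the 8. The Nanog promoter at chr6:122707239-122707538 on the plus strand (GRCm38.p6) is shown for this reason. The first capitals mark the composite, read here on the opposite strand from 75 bases before the start, together with an overlapping SOX core (CATTGT). The second capitals mark an OTX core (TAATCC), also on the opposite strand, from 39 bases before the start.
Nanog promoter: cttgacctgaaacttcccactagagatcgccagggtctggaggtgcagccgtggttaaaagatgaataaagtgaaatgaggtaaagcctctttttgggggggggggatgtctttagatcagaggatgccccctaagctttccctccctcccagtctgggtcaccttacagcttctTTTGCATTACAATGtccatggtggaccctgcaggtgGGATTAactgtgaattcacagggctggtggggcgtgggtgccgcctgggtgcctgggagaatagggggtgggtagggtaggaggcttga

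The shorter motifs were more frequent. The SOX core occurred in 12.6% of promoters and in windows of Nanog and Pou5f1. The OTX core occurred in 7.06% and in windows of Nanog, Otx2 and Pou5f1. Both Pou5f1 matches lay in the window at chr17:35508557-35508856, inside the gene, and not in the window that spans its start. Of the Otx2 windows, only that at chr14:48665060-48665359 held the OTX core. The full octamer ATGCAAAT occurred in 1.74% and in no member's window.

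Expression was read as TPM, a level scaled for transcript length and to a fixed total in each sample, so levels of different genes can be set side by side. How many reads lie behind a TPM value is not known. Lines were compared with limma on the log2(TPM + 1) scale, fitted over every gene averaging 1 TPM or more, and a Benjamini-Hochberg adjusted p under 0.05 counted as passing. This scale shrinks the differences of weakly expressed genes. Ratios below are ratios of mean TPM, and gene positions are in GRCm38 as GENCODE annotates them.

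Samples of a line were not equally alike, which bears on every member. HetKO and WT replicates 1 and 4, 2 and 5, and 3 and 6 formed close pairs, as did HM replicates 1 and 4, 2 and 3, and 5 and 6. Over 683 highly expressed genes, the robust SD of the log2 difference within a pair was 0.051 to 0.0696 in HetKO, against 0.164 to 0.358 between other HetKO samples. It was 0.0595 to 0.105 against 0.168 to 0.279 in HM, and 0.0493 to 0.0746 against 0.073 to 0.205 in WT. The WT pairs were thus less distinct. WT replicates 2, 3, 5 and 6 lay within 0.0939 of each other, and only replicates 1 and 4 stood apart from them, at 0.179 to 0.205. The members mostly followed the same pairs, which were taken from these same samples. In 25 of 27 groups of a member and a line, the median difference within pairs was below the median of the other differences. Every alike pair was closer than every other pair in only 5 of the 27. A fit on the 3 pair means of each line is therefore given wherever it changes a member's call, and for the gene lists as a count.

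**Figure D1:**
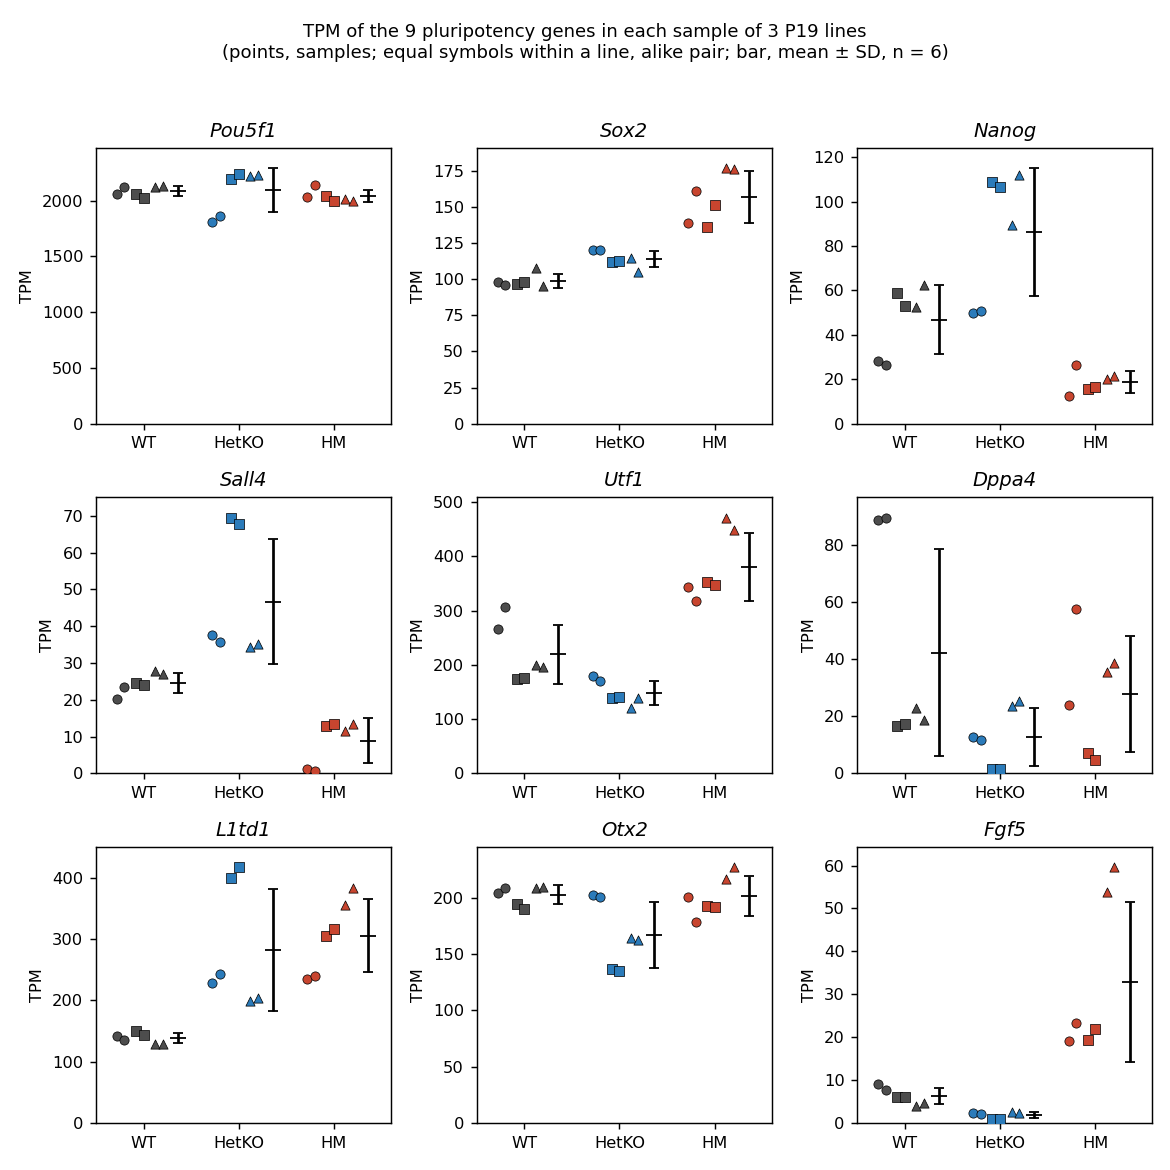
TPM (vertical axes, linear from 0) of each of the 9 genes in the 6 samples of WT, HetKO and HM; points are samples, equal symbols within a line mark a pair of alike samples, and the bar is the mean ± SD (n = 6). Pou5f1 stays between 1814 and 2244 TPM in all samples, Fgf5 separates the lines with HetKO at 1 to 2.63, WT at 3.97 to 8.97 and HM at 19.1 to 59.6 TPM, and Dppa4 varies mostly between pairs within a line.

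Pou5f1 (ENSMUSG00000024406.16, chromosome 17 from 35506018 to 35510772, plus strand) was the most abundant member, ranking 75 of the 13955 genes that averaged 1 TPM or more over all samples. Its lowest, median and highest TPM were 2023, 2093 and 2136 in WT, 1814, 2207 and 2244 in HetKO, and 1999, 2028 and 2145 in HM. All lines overlapped, and the highest of the 18 values was 1.24-fold the lowest. The log2 difference from WT was -0.03 in HM (95% confidence interval -0.10 to 0.03, adjusted p = 0.397 from limma) and -0.00 in HetKO (-0.13 to 0.12, adjusted p = 0.997). After each sample was centred on its median, the HM difference changed sign to 0.14 and passed the threshold (adjusted p = 0.0153). The spread within HetKO came from replicates 1 and 4, at 1814 and 1866 TPM, while its other samples were at 2193 to 2244.

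Sox2 (ENSMUSG00000074637.7, chromosome 3 from 34650405 to 34652461, plus strand), the DNA-binding partner of Pou5f1, was highest in HM. The lowest, median and highest Sox2 values were 95.4, 97.3 and 108 TPM in WT, 105, 114 and 120.0 in HetKO, and 136, 156 and 177 in HM. Every HM sample lay above every sample of the other lines, and HetKO overlapped WT. HM exceeded WT 1.59-fold, a log2 difference of 0.66 (standard error 0.07, adjusted p = 1.95e-05 from limma). HM exceeded HetKO 1.37-fold, a difference of 0.45 (standard error 0.07, adjusted p = 0.000819). The call against HetKO was lost on pair means (adjusted p = 0.079). HetKO was 1.16-fold WT (0.21, standard error 0.05, adjusted p = 0.0183). That call was lost on pair means (0.448), in a single fit of all 3 lines (0.0509) and without HetKO replicates 1 and 4 (0.0533), WT replicates 1 and 4 (0.0599) or WT replicates 2 and 5 (0.0906). Sox2 lies inside Sox2ot, a transcript on the same strand whose mean stayed between 0.51 and 0.762 TPM in the 3 lines.

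Nanog (ENSMUSG00000012396.12, chromosome 6 from 122707489 to 122714633, plus strand) went the other way from Sox2 in HM. TPM values of Nanog (lowest, median and highest) were 26.4, 52.7 and 62.4 in WT, 50, 97.8 and 112 in HetKO, and 12.5, 18.3 and 26.6 in HM. Every HM sample lay below every HetKO sample, while a single HM value, replicate 4, fell between the 2 lowest WT values. WT was 2.5-fold HM, a log2 difference of -1.24 (standard error 0.24, adjusted p = 0.000903 from limma). HetKO was 4.59-fold HM (-2.10, standard error 0.24, adjusted p = 4.90e-05), and both calls held on pair means (adjusted p = 0.0236 and 0.0134). HetKO was 1.84-fold WT, with overlapping values and a difference of 0.86 that did not pass (standard error 0.28, adjusted p = 0.0651). It passed when samples were centred on their medians (adjusted p = 0.0487) and in a single fit of all 3 lines (0.0402).

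Within WT and HetKO, replicates 1 and 4 were the low ones for Nanog, at 28.4 and 26.4 TPM in WT and 50 and 50.9 in HetKO. Without HetKO replicates 1 and 4 the HetKO difference was 1.21 and passed (adjusted p = 0.0105), as it did without replicate 1 alone (0.0381) or replicate 4 alone (0.0422). The pseudogenes Nanog-ps1 and Nanog-ps2, to which Nanog reads could be assigned, were listed at 0 in all samples. For Pou5f1, 5 of 7 named pseudogenes were in the table, and none exceeded 0.29 TPM.

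Sall4 (ENSMUSG00000027547.17, chromosome 2 from 168748332 to 168767943, minus strand) separated the 3 lines without overlap, in the order HetKO, WT, HM. For Sall4 the lowest, median and highest TPM were 20.2, 24.2 and 27.9 in WT, 34.3, 36.6 and 69.5 in HetKO, and 0.63, 12.2 and 13.5 in HM. HM fell into 2 levels, with replicates 1 and 4 at 1.24 and 0.63 TPM and the other samples at 11.5 to 13.5. HetKO fell into 2 levels as well, with replicates 2 and 5 at 69.5 and 67.8 TPM and the others at 34.3 to 37.5. HM was below WT by a log2 difference of -1.83 (standard error 0.54, adjusted p = 0.0122 from limma). This call was lost on pair means (adjusted p = 0.0996), when each gene had an unequal-variance test (0.0583) and without WT replicates 3 and 6 (0.0531). HetKO was 1.91-fold WT (0.84, standard error 0.19, adjusted p = 0.0134). That call was lost on pair means (0.322), in a single fit of all 3 lines (0.266), when each gene had an unequal-variance test (0.073) and without WT replicates 1 and 4 (0.0623) or 2 and 5 (0.0641). HetKO was 5.28-fold HM (-2.67, standard error 0.56, adjusted p = 0.0036, and 0.101 on pair means).

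Without HM replicates 1 and 4, Sall4 still differed between HM and WT, at -0.88 on the log2 scale (adjusted p = 4.58e-05 from limma). For the 7 other expressed genes within 1 Mb, the median log2 difference from the WT mean ranged over HM samples from 0.03 to 0.23, where Sall4 ranged from -3.96 to -0.81. The transcript Gm14261, which overlaps Sall4 on the opposite strand, averaged at most 0.105 TPM in any line.

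Utf1 (ENSMUSG00000047751.9, chromosome 7 from 139943789 to 139945112, plus strand), a chromatin-associated factor of undifferentiated cells, was highest in HM and lowest in HetKO. The lowest, median and highest Utf1 values were 174, 198 and 307 TPM in WT, 119.8, 140.1 and 179.6 in HetKO, and 317, 351 and 472 in HM. All HM samples lay above all WT and HetKO samples, whereas HetKO overlapped WT. HM was 1.73-fold WT (log2 difference 0.81, standard error 0.15, adjusted p = 0.000704 from limma, 0.0309 on pair means). HM was 2.57-fold HetKO (1.35, standard error 0.12, adjusted p = 5.30e-06, 0.00918 on pair means). The difference between HetKO and WT was -0.54 (standard error 0.15, adjusted p = 0.0344). It passed in 11 of 27 alternatives. It fell short in 8 of the 12 fits that left out a single sample, with adjusted p-values up to 0.0705, and on pair means (0.415). It also fell short with no expression filter (0.059), after centring (0.0733), when each gene had an unequal-variance test (0.0866), and without HetKO replicates 2 and 5 (0.112) or 3 and 6 (0.0765) or WT replicates 1 and 4 (-0.34, adjusted p = 0.082) or 3 and 6 (0.0734).

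Dppa4 (ENSMUSG00000058550.15, chromosome 16 from 48283733 to 48294237, plus strand), which acts in a complex with Dppa2, varied widely within each line. Its TPM in WT was 88.9 and 89.5 in replicates 1 and 4 but 16.6 to 22.9 in the others. In HetKO it was 12.6 and 11.8 in replicates 1 and 4, 1.49 and 1.44 in replicates 2 and 5, and 23.5 and 25.3 in replicates 3 and 6. In HM it was 6.96 and 4.67 in replicates 2 and 3, 35.4 and 38.8 in replicates 5 and 6, and 23.9 and 57.6 in replicates 1 and 4. The highest of the 18 values was 62.2-fold the lowest, and all lines overlapped.

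No comparison of Dppa4 passed. The log2 difference from WT was -0.62 in HM (95% confidence interval -2.0 to 0.77, adjusted p = 0.442 from limma) and -1.80 in HetKO (-3.31 to -0.30, adjusted p = 0.116). Between HM and HetKO it was 1.19 (-0.42 to 2.79, adjusted p = 0.23). These calls depended on pairs. Without HetKO replicates 3 and 6, HetKO was below WT by -2.52 with an adjusted p of 0.0321, and without HM replicates 2 and 3, HM was above HetKO by 2.02 with an adjusted p of 0.0462. The difference between HM and WT changed sign without WT replicates 1 and 4 (0.12) and without HM replicates 2 and 3 (0.22).

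L1td1 (ENSMUSG00000087166.9, chromosome 4 from 98726734 to 98738480, plus strand) was higher in both Dicer1-edited lines. In TPM, the lowest, median and highest L1td1 values were 128, 139 and 149.5 in WT, 199, 236 and 418 in HetKO, and 236, 311 and 383 in HM. Neither edited line overlapped WT, and the edited lines overlapped each other. HM was 2.22-fold WT (log2 difference 1.12, standard error 0.11, adjusted p = 1.23e-05 from limma, 0.0103 on pair means). HetKO was 2.04-fold WT (0.96, standard error 0.18, adjusted p = 0.00487), a call lost on pair means (0.231) and with an unequal-variance test per gene (0.058). HM and HetKO differed by 0.16 (95% confidence interval -0.28 to 0.60, adjusted p = 0.558), an interval that reaches from 0.83-fold to 1.52-fold.

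Within the edited lines L1td1 moved with the sample pairs. HetKO replicates 2 and 5 stood at 399.8 and 418 TPM, above the 199 to 243 of the others. HM replicates 1 and 4 stood at 236 and 239, below the 305 to 383 of the others. Without HetKO replicates 2 and 5, HM exceeded HetKO by a log2 difference of 0.46 (adjusted p = 0.0185). Over the 8 other expressed genes within 1 Mb, the median log2 difference from the WT mean was 0.24 to 0.64 in HetKO samples, against 0.53 to 1.59 for L1td1. In HM samples their median was -0.14 to 0.21, against 0.77 to 1.47 for L1td1.

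Otx2 (ENSMUSG00000021848.16, chromosome 14 from 48657677 to 48673819, minus strand), the homeodomain factor of the primed epiblast, had overlapping values in all lines. Its lowest, median and highest TPM were 189.7, 206 and 209.8 in WT, 135, 163 and 202 in HetKO, and 179, 197 and 227 in HM. HM differed from WT by -0.01 (95% confidence interval -0.14 to 0.11, adjusted p = 0.877 from limma), a sign that turned after centring on the sample median (0.17, adjusted p = 0.0669). HetKO was below WT by -0.30 (-0.51 to -0.08, adjusted p = 0.0731) and HM was above HetKO by 0.28 (0.05 to 0.52, adjusted p = 0.056). HetKO again held the wide spread, with replicates 2 and 5 at 137 and 135 TPM and replicates 1 and 4 at 202 and 201. Without HetKO replicates 1 and 4 both differences passed, at -0.44 from WT (adjusted p = 0.00292) and 0.43 between HM and HetKO (adjusted p = 0.00673), as they did without either replicate alone. Both also passed in a single fit of all 3 lines (adjusted p = 0.0474 and 0.0204), and that between HM and HetKO passed after centring (0.40, adjusted p = 0.00913).

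Fgf5 (ENSMUSG00000029337.2, chromosome 5 from 98254184 to 98277030, plus strand), a growth factor made by the primed epiblast, had the widest separation of line means among the members. Fgf5 had lowest, median and highest TPM of 3.97, 5.99 and 8.97 in WT, 1, 2.17 and 2.63 in HetKO, and 19.1, 22.6 and 59.6 in HM. No line overlapped another, in the order HM, WT, HetKO. HM was 5.28-fold WT (log2 difference 2.10, standard error 0.30, adjusted p = 0.000122 from limma, 0.0163 on pair means). HM was 17.3-fold HetKO (3.42, standard error 0.30, adjusted p = 5.81e-06, 0.00867 on pair means). WT was 3.27-fold HetKO (-1.32, standard error 0.21, adjusted p = 0.00163), a call lost on pair means (adjusted p = 0.167). HM replicates 5 and 6 reached 53.7 and 59.6 TPM, while the other HM samples were at 19.1 to 23.4.

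**Figure D2:**
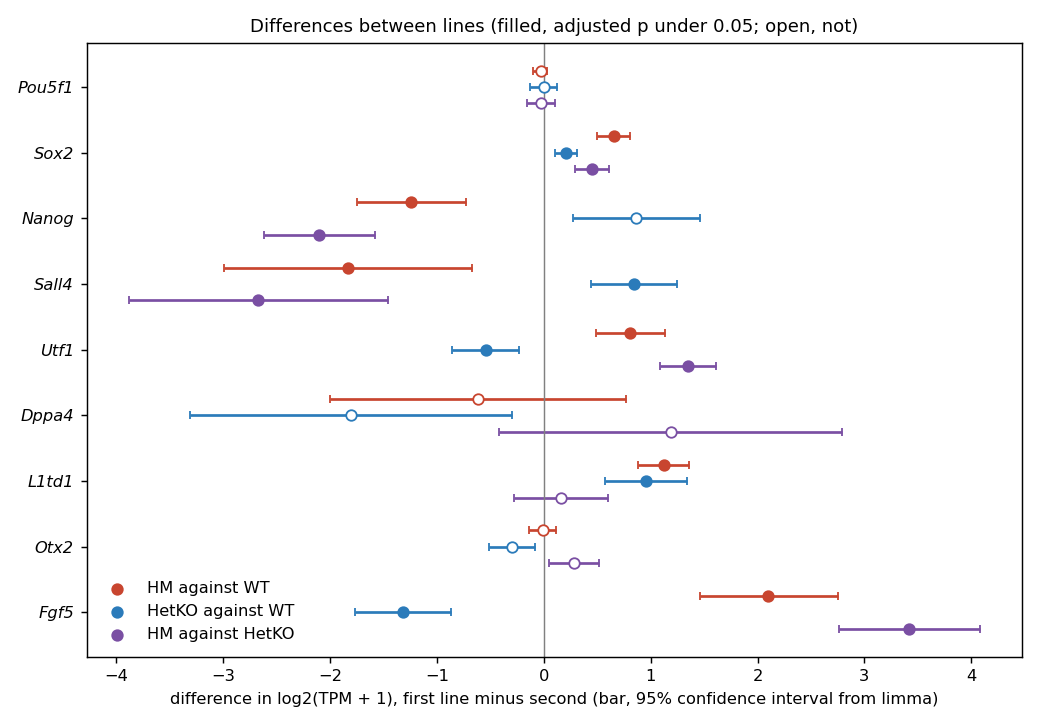
Difference in log2(TPM + 1) between lines for each of the 9 genes (horizontal axis, first line minus second), with 95% confidence intervals from limma; filled points passed an adjusted p of 0.05. Nanog and Sall4 lie below 0 in HM against both lines, Sox2, Utf1 and Fgf5 lie above 0 there, and all intervals of Pou5f1 include 0.

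Between HM and WT, 6 of the 9 members passed, with Sox2, Utf1, L1td1 and Fgf5 higher and Nanog and Sall4 lower. Over all 14043 genes tested, 51.4% passed in this comparison, 19.4% higher and 32% lower, so a share of this size is near the background. Of the members, 5 did not overlap between the lines, 4 higher and 1 lower, where 28.5% of all genes did not (10.6% higher and 18% lower). The median log2 difference was -0.01 over the members and -0.09 over all genes. On pair means 5 members passed, with a background of 24.3%. The median over all genes moved to 0.08 when samples were centred on their medians, and the share of passing genes that were higher moved from 37.7% to 61% (51.1% with quantile normalization). Of the members, Pou5f1 and Otx2 changed sign under centring.

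Between HetKO and WT, 5 of the 9 members passed, with Sox2, Sall4 and L1td1 higher and Utf1 and Fgf5 lower. The background was 10.2% of 13999 genes, 3.71% higher and 6.44% lower. Without overlap there were 3 members, 2 higher and 1 lower, against 8.21% of all genes (3.07% higher and 5.14% lower). The median was -0.00 over the members and -0.03 over all genes. No member passed on pair means, where 0.25% of all genes passed. Without WT replicates 1 and 4, 2 members passed, and without WT replicates 2 and 5, 3 members. Centring moved the share of passing genes that were higher from 36.5% to 50.7%.

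HM and HetKO share the truncated allele and differ by the hotspot allele and a further round of cloning. Between them 5 of the 9 members passed, with Sox2, Utf1 and Fgf5 higher in HM and Nanog and Sall4 lower, and these same 5 did not overlap. The background was 34.6% of 13762 genes, 14% higher and 20.6% lower, and 15.5% did not overlap (6.23% higher and 9.27% lower). The median was 0.28 over the members and -0.05 over all genes. On pair means Nanog, Utf1 and Fgf5 passed, with a background of 3.3%. Centring moved the share of passing genes that were higher from 40.4% to 60.9%.

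The comparisons of HM and of HetKO with WT use the same WT samples, so their values are given side by side only. For Nanog they were -1.24 and 0.86, for Sall4 -1.83 and 0.84, for Utf1 0.81 and -0.54, and for Fgf5 2.10 and -1.32, opposite in sign in each case. For Sox2 they were 0.66 and 0.21 and for L1td1 1.12 and 0.96. Of these values, all passed the threshold except that of Nanog in HetKO.

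**Figure D3:**
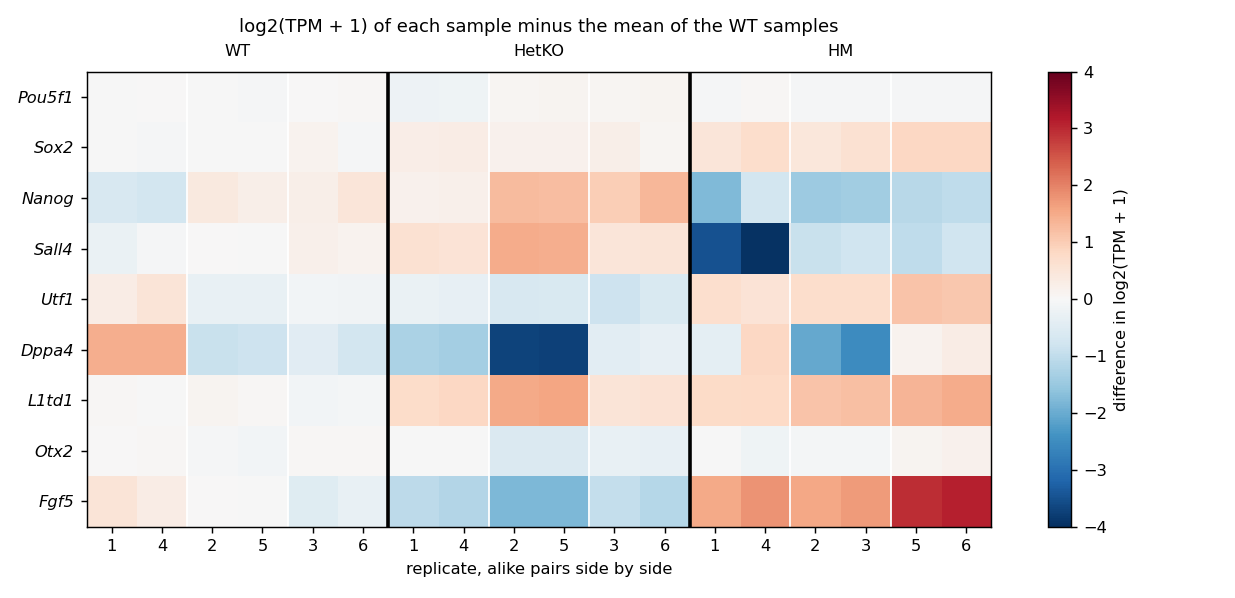
Difference of each sample from the WT mean in log2(TPM + 1) (color scale, -4 to 4) for the 9 genes (rows) in the 18 samples (columns, alike pairs side by side). Sall4 is lowest in HM replicates 1 and 4, Dppa4 is lowest in HetKO replicates 2 and 5, and Fgf5 is highest in HM replicates 5 and 6.

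As a description of pluripotent identity, Pou5f1, Sox2, Nanog, Sall4, Utf1, Dppa4, L1td1, Tdgf1 and Lin28a all averaged 1 TPM or more in each line. All but Tdgf1 and Lin28a are members, so this is no independent check. The summed level of these genes was 3018 to 3298 TPM in WT, 2789 to 3636 in HetKO and 3322 to 3718 in HM. Pou5f1 was the largest part (mean 2088 TPM in WT), so the sum says little about the other genes. Summed markers of other cell types were far lower, though not absent. Gene by gene this did not hold throughout. In WT the neural marker Tubb3 averaged 40.3 TPM, against 46.9 for Nanog and 24.5 for Sall4. The 9 mesoderm and endoderm markers summed to 18.2 to 31.6 TPM in WT, 13.6 to 199 in HetKO and 33.3 to 70.5 in HM, with Gata4, Sox17 and Foxa2 below 1 TPM on average in all lines. The 3 trophoblast markers summed to 2.54 to 5.19 TPM in WT, 0.9 to 5.65 in HetKO and 2.2 to 5.33 in HM, with Cdx2 and Elf5 below 1. The neural markers Sox1, Pax6, Neurog1, Tubb3 and Map2 summed to 48.1 to 52.4 TPM in WT, 26.3 to 56.6 in HetKO and 30.2 to 57.9 in HM. The 5 fibroblast markers summed to 32.4 to 37.3 TPM in WT, 10.6 to 39.3 in HetKO and 20.2 to 26.7 in HM.

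The mesoderm regulator T moved with the HetKO pairs. It reached 110.5 and 66.2 TPM in HetKO replicates 2 and 5 and stayed between 0.94 and 9.13 in the other HetKO samples. These are the replicates in which Sall4 and L1td1 were highest and Dppa4, Otx2 and Fgf5 were lowest. Pou5f1 (2193 and 2244 TPM) and Nanog (109 and 106 TPM) were not reduced in them. T was at 3.45 to 8.6 TPM in WT and 10.9 to 41.9 in HM. The summed fibroblast markers were also lowest there, at 10.6 and 11.3 TPM, against 37.1 to 39.3 in the other HetKO samples. The neural sum was lowest there too, at 27.1 and 26.3 TPM against 36 to 56.6, and the trophoblast sum was highest, at 5.65 and 5.25 TPM against 0.9 to 2.06. The part of these markers in the members' values was not tested.

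Deviations of the members from their line means were compared over the 18 samples as a description, since alike samples may not be independent. The 5 largest correlations, by size, of the 36 pairs of members are given. Sall4 and L1td1 moved together (Pearson r = 0.68, with 0.98 within HetKO and 0.90 within HM, but -0.59 within WT). Pou5f1 and Nanog had r = 0.64, with 0.97 within HetKO, 0.50 within HM and -0.02 within WT. Pou5f1 and Otx2 had r = -0.76, with 0.91 within WT and -0.87 within HetKO. Dppa4 and Fgf5 had r = 0.67, with 0.52 to 0.96 within lines. Nanog and Utf1 had r = -0.64, from -0.94 in WT to 0.18 in HM. Only the pair of Dppa4 and Fgf5 among these 5 kept its sign in all lines.

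The genes most like each member were sought among 9589 genes averaging 5 TPM or more, by the same correlation over 18 samples. Genes with provisional names (Gm with a number, ending in Rik, or like an accession) were left out of this search. Dppa4 was most like Cdh1 (r = 0.96), the epithelial cadherin, and Dppa2 (r = 0.95), its binding partner. Cdh1 was at 93.5 and 92.6 TPM in WT replicates 1 and 4, where Dppa4 was high, and at 18.1 and 17.8 in HetKO replicates 2 and 5, where it was low. Sall4 was most like Epop (r = 0.97), which encodes a Polycomb-associated protein. Epop was at 39.9 and 36.4 TPM in HM replicates 1 and 4 and at 111 to 126 in the other HM samples. The Epop mean was 51.2 TPM in WT, 95 in HetKO and 93.2 in HM, so HM was not below WT as it was for Sall4.

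For the other members the closest genes were Atp1b1 for Pou5f1 (r = 0.92), Gtf3c2 for Sox2 (r = 0.87), Ndrg3 for Nanog (r = 0.91) and Hsp90ab1 for Utf1 (r = 0.96). They were Top1 for L1td1 (r = 0.99), Iqgap1 for Otx2 (r = 0.96) and Dync1li1 for Fgf5 (r = 0.92). For Pou5f1 the likeness to Atp1b1 was 0.99 within HetKO and -0.38 within WT, where Pou5f1 hardly varied. These are the highest of 9589 values each and share the sample pairs described above.

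The 9 genes were set beside 3 lists of other pluripotency genes. Of 12 other core genes, which include the Dppa4 partner Dppa2, the RNA-binding protein Lin28a and the transcription factors Mycn and Foxd3, 7 were higher and 1 lower in HM than in WT, where 19.4% of all genes were higher and 32% lower. On pair means 4 were higher and 0 lower. Their median log2 difference was 0.41, against -0.01 over the 9 members and -0.09 over all genes. The extremes were Mycn at 1.5 (adjusted p = 0.00043 from limma) and Lefty1, an inhibitor of Nodal signaling, at -1.63 (adjusted p = 0.00694). Between HetKO and WT, 1 was higher (Foxd3, 1.00, adjusted p = 0.000182) and 1 lower (Rif1, -0.22, adjusted p = 0.02), with a median of -0.08 and none passing on pair means. The background there was 3.71% higher and 6.44% lower. Lefty1 was lowest there at -1.60 but did not pass (adjusted p = 0.195). Between HM and HetKO, 6 were higher and 0 lower (14% and 20.6% of all genes), or 1 higher on pair means, from Foxd3 at -0.05 (adjusted p = 0.847) to Dppa2 at 1.13 (adjusted p = 0.0307). Like Nanog and Sall4, Lefty1 was lower in HM than in WT, whereas most other core genes that passed were higher, as Sox2, Utf1 and L1td1 were.

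Of 12 other formative and primed epiblast genes, 3 were higher in HM than in WT and 0 lower, a share of higher genes near the 19.4% of all genes. On pair means 2 were higher, Lef1 and Fgf15. The 3 genes were Lef1, a transcription factor of Wnt signaling (1.89, adjusted p = 1.79e-05 from limma), Fgf15 (1.25, adjusted p = 0.000225) and Sox3 (0.54, adjusted p = 0.00726). The lowest was Cdh2 at -0.25 (adjusted p = 0.101), and the median was 0.17, against -0.09 over all genes, 2.10 for Fgf5 and -0.01 for Otx2. Between HetKO and WT, only Grhl2 passed (-0.73, adjusted p = 0.0141), the highest was Nodal at 0.35 (adjusted p = 0.526), and the median was -0.04, with none passing on pair means. Between HM and HetKO, 4 were higher and 1 lower (14% and 20.6% of all genes), none of them on pair means, from Cdh2 at -0.55 (adjusted p = 0.0184) to Lef1 at 1.92 (adjusted p = 0.000569).

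Of 13 naive genes, 8 were expressed enough to be tested between HM and WT, where 3 were higher and 1 lower (19.4% and 32% of all genes), as on pair means. The median was 0.41. The extremes were Nr0b1, a nuclear receptor of naive cells, at 1.62 (adjusted p = 0.000671 from limma) and Tcl1 at -1.91 (adjusted p = 0.00234). Tcl1, the 1 lower gene, reached the filter only through WT (mean 4.07 TPM, against 0.113 in HM), so it could hardly come out higher. In WT replicates 1 and 4 it was at 0.27 and 0.84 TPM, overlapping HM, and in the other WT samples at 5.44 to 6.26. Klf4 reached the filter only through HM and did not pass. Between HetKO and WT, 5 of 9 tested were lower and 0 higher, where 6.44% of all genes were lower, and 0 of the 9 passed on pair means. Zfp42, Dppa3 and Tcl1 reached the expression filter only through WT, with means of 0.307, 0.137 and 0 TPM in HetKO. Such genes could hardly come out higher, and Zfp42 and Tcl1 are among the 5, so this count and the median lean on the filter. Klf4 and Tbx3 reached it only through HetKO, and neither passed. The median of the 9 tested was -1.01, against -0.03 over all genes, with Klf4 highest at 0.26 (adjusted p = 0.284) and Tcl1 listed at 0 in every HetKO sample. Of 6 tested between HM and HetKO, 4 were higher and 0 lower (14% and 20.6% of all genes), or 3 higher on pair means, from Klf4 at -0.03 (adjusted p = 0.905) to Nr0b1 at 2.62 (adjusted p = 3.45e-05). Zfp42, counted as higher in both fits, reached the filter there only through HM (mean 3.04 TPM, against 0.307 in HetKO). Nr0b1 and Fgf4 were thus lower in HetKO and higher in HM than in WT, the order that Fgf5 and Utf1 also had. Of the 13 naive genes, Esrrb, Tfcp2l1, Nr5a2 and Prdm14 averaged under 1 TPM in each line, while the highest in WT were Nr0b1 at 20.3 and Fgf4 at 11.4 TPM. The primed genes Fgf5 and Otx2 averaged 6.22 and 203 TPM there.

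**Figure D4:**
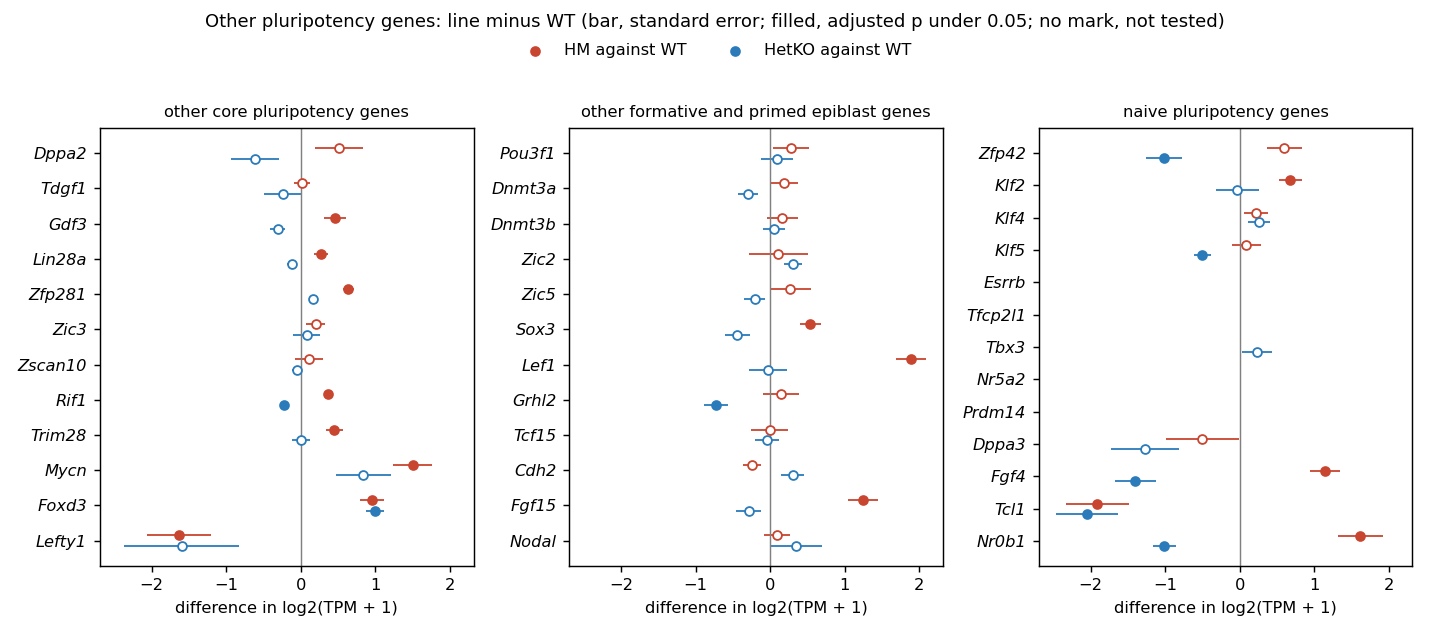
Difference from WT in log2(TPM + 1) (horizontal axes) of HM and HetKO for 3 lists of other pluripotency genes, with standard errors; filled points passed an adjusted p of 0.05 in limma and genes without a mark were not tested. In HM, 7 of 12 core genes are higher with Lefty1 lower, and in HetKO 5 naive genes are lower. Of these 5, Zfp42 and Tcl1 reached the expression filter only through WT.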

How the data were processed

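Poly(A) RNA of 18 samples, 6 for each of 3 P19 lines, was sequenced as stranded paired-end libraries. Per its methods, the study joined overlapping mates with BBMerge and estimated expression with RSEM. The authors deposited TPM per gene, rounded to 2 decimals. The submitters' processing notes name cutadapt, STAR and mm10, without versions. TPM keeps no depth, so no counting interval could be given, and precision was taken from the spread between samples. RSEM divides reads shared by gene copies by estimate.

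All 55450 gene identifiers matched GENCODE M21 (GRCm38), which gave positions and 3′ UTRs. For each comparison of 12 samples, limma 3.58.1 (R 4.3.3) was fitted to log2(TPM + 1) of the genes averaging 1 TPM or more, with a variance trend and two-sided Benjamini-Hochberg adjusted p-values. Line comparisons used only their own samples. The fit was tested on simulated samples that were independent and held no alike pairs, so that test does not bear on the effect of the pairs. Sequences, lists and figures used Python 3.11.15, numpy 2.4.6, pandas 2.3.3 and matplotlib 3.10.9.

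The 9 genes, the lists and the alike pairs were chosen with earlier results of these data known. All 9 genes are named. From each list, the lowest and highest genes were named, and from likeness the closest gene or genes to each member. Genes named from counts of 5 or fewer, T, and Fgf4 were chosen after their values were seen. The alternatives were other pseudocounts, filters and scalings, a single fit of all lines, an unequal-variance test, a replicate block, pair means, a 1.5-fold limit and the removal of each sample. Leaving out further alike pairs was chosen after seeing the data. Every column of the table was used, and the miRNA libraries were not analysed here. A neural marker of the chosen list is not reported here, and the neural sum leaves it out.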

Additional observations from a re-analysis of the deposited data

Results flagged for a closer look

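In 27 groups of a member and a line, each of 6 samples, the highest or lowest sample was compared with its nearest neighbour by Dixon's ratio (95% level) of that gap to the whole range. If the 6 samples were independent, about 1 in 20 groups would pass the critical value by chance, or 1.35 of 27, and 2 did. The alike pairs depart from that, so the chance figure may not hold for these groups. Pou5f1 in HM replicate 4 was the highest of its line at 2145.23 TPM, with a ratio of 0.706. Sox2 in WT replicate 3 was the highest of its line at 107.77 TPM, with a ratio of 0.767, and it remained below every HM sample.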

How the results depend on the processing

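Of the 7220, 1421 and 4765 genes that passed between HM and WT, HetKO and WT, and HM and HetKO, 3414, 35 and 454 were counted on pair means and 3008, 666 and 2099 with a 1.5-fold limit. With the unequal-variance test 852 genes and 2 members passed between HetKO and WT. Members there numbered 5, against 0 on pair means and 3 with the 1.5-fold limit; between HM and HetKO they numbered 3 on pair means. Gene counts between HetKO and WT were 2508 without HetKO replicates 3 and 6, 663 without WT replicates 2 and 5, and 812 without WT replicates 3 and 6, with 2 members without WT replicates 1 and 4 and 3 without WT replicates 2 and 5. Between HM and HetKO 2785 genes passed without HM replicates 5 and 6 and 2873 without HetKO replicates 3 and 6. The cause was not tested.

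Leaving out each sample in turn gave 6541 to 7361, 959 to 1518 and 3655 to 5213 genes, and 6, 4 to 7 and 5 to 6 members. Otx2 between HM and WT then ranged from -0.0473 to 0.0214, and Pou5f1 between HetKO and WT from -0.0214 to 0.0399. For the 9 genes, the remaining alternatives gave 348 values with the same sign and the same call, and 18 of opposite sign. With the sign kept, 12 were newly past the threshold and 26 no longer past it. A value that changed sign is counted only among the 18, also where it newly passed, as for Pou5f1 between HM and WT after centring.

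Centring gave Pou5f1 0.145 between HM and WT, which passed (adjusted p = 0.0153), and 0.0545 and 0.083 in the other comparisons, and gave Otx2 0.166 between HM and WT, and quantile normalization gave Pou5f1 0.00842 and 0.0728 against WT in HM and HetKO. Otx2 between HM and WT was 0.0292 without HM replicates 1 and 4, 0.0181 without HM replicates 2 and 3, 0.00183 without WT replicates 1 and 4 and 0.012 without WT replicates 3 and 6. Pou5f1 between HetKO and WT was 0.0903 without HetKO replicates 1 and 4, 0.000699 without WT replicates 1 and 4 and 0.0137 without WT replicates 3 and 6. Pou5f1 between HM and HetKO was 0.0113 without HetKO replicates 2 and 5 and 0.0138 without HetKO replicates 3 and 6. Dppa4 between HM and WT was 0.219 without HM replicates 2 and 3 and 0.116 without WT replicates 1 and 4. L1td1 between HM and HetKO was -0.0439 without HetKO replicates 3 and 6. A filter of 5 TPM left Fgf5 out between HetKO and WT.

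The labels do not say that replicate numbers pair the samples, and the main fit did not use them. Deviations of samples with equal numbers correlated on average at 0.00512, 0.0621 and 0.0206. With the number as a block, 6889, 1206 and 4200 genes passed, and Nanog passed between HetKO and WT (adjusted p = 0.000203). Between HetKO and WT, 3 of 6 HetKO samples and 4 of 6 WT samples correlated best with their own number. In each of the other comparisons it was 1 of 6 in either line. Whether HetKO and WT samples of equal number share a source was not tested.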
